A study of Sus scrofa with 12 samples.

Results

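The genes of the centrosome and of the centriolar satellites were followed in paVICs, the interstitial cells of pig aortic valves, by sequencing of mRNA. A gene was taken when its symbol in the deposited table was CEP followed by a number, with or without a final L, or was 1 of 20 listed centrosome names, and when its counts summed to at least 60 over the 12 libraries. The rule found 47 genes of 31908, of which 33 are CEP-numbered and 14 were listed by name, and no candidate fell below the minimum. Of the listed names, PCNT, CNTRL, OFD1 and ROCK1P1 matched no symbol of the table, and SPICE1 and BBS4 are rows without a symbol there and so lay outside the rule. CEP72 was the gene just inside the minimum, with 100 counts in all, and the next lowest was CEP55 with 374.

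The cells came from 3 separate isolations, each of which pooled the valves of several pigs after the endothelial layer had been wiped away. Each isolation gave 1 library per group, cultured on its own day in low serum for 24 h. The groups were vehicle, 10 µM lysophosphatidylcholine (LPC, a lipid of oxidized low-density lipoprotein that makes these cells calcify in culture), 60 µM dantrolene (a blocker of the ryanodine receptor, a calcium release channel), and LPC with dantrolene (n = 3 per group). All 4 groups held 0.6% DMSO and 0.1% ethanol. The comparisons ask what LPC does to the transcripts of these cells and what dantrolene does to them with and without LPC.

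Centrosomes are the main sites from which animal cells grow microtubules. Each holds a pair of centrioles, barrels of microtubules, inside a cloud of pericentriolar material that carries γ-tubulin, and the older centriole bears appendages that dock it to the membrane when it forms the base of a primary cilium. Satellites are small granules around the centrosome, scaffolded by PCM1, that carry centrosome and cilium proteins. Fibroblast-like cells such as VICs are known to form primary cilia when they stop dividing.

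Total counts ranged from 16489684 to 24105935 per library, and 3 counts equalled 0.114 to 0.186 CPM (counts scaled to a common library size, here with TMM factors, which correct for differences in library composition). All 10 interstitial markers were found in every library, from POSTN (8.88 to 98.9 CPM) to COL1A2 (12573 to 28023 CPM). Their summed level was 78913 to 91843 CPM in vehicle, 57494 to 84482 with LPC, 55369 to 73120 with dantrolene, where every library lay below vehicle, and 58014 to 104579 with both. That sum is mostly COL1A1, COL1A2, COL3A1, ACTA2 and VIM, and the markers did not move together. LUM was at 70.9 to 140 CPM in vehicle and 275 to 366 CPM with dantrolene. Of 6 leukocyte markers PTPRC and CD163 were at 0 in all 12 libraries, AIF1 and CSF1R were at 0 in several, and CD14 (10.3 to 24.5 CPM) and CD68 (0.760 to 3.17 CPM) were present in all. The summed leukocyte level was 16.4 to 23.8 CPM in vehicle, 12.4 to 25.3 with LPC, 16.3 to 18.2 with dantrolene, and 18.7 to 28.5 with both. Of 7 endothelial markers KDR was at most 0.238 CPM, but PECAM1 (23.7 to 44.2 CPM) and CDH5 (13.0 to 37.7 CPM) were present. The summed endothelial level was 84.0 to 87.5 CPM in vehicle, 63.0 to 71.2 with LPC, 47.8 to 66.0 with dantrolene, and 53.0 to 61.0 with both, so it was lower in the treated groups. The part of these cell type markers in the results was not tested.

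All 47 genes passed the filter on low counts. Their summed level was 880 to 1008 CPM in the vehicle libraries, 1182 to 1230 with LPC, 1056 to 1380 with dantrolene, and 1121 to 1390 with both, so every treated library lay above every vehicle library. In bulk RNA a change in the share of cells that carry a transcript and a change in RNA per cell cannot be told apart. Each gene was tested by quasi-likelihood in edgeR and called where the p-value, adjusted by Benjamini-Hochberg over all 13216 genes tested, was under 0.05 (edgeR adjusted p). The 3 comparisons with vehicle share the vehicle libraries. The genes and lists were chosen with earlier results of these data known.

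LPC raised 18 of the 47 genes and lowered 0, where 8.69% of all genes tested were called in either direction, 8.54% higher and 0.144% lower. Their fold changes ran from 2.25 (CEP170) to 7.16 (CEP162). Dantrolene raised 15 and lowered 0 (8.8% of all genes called, 7.54% higher and 1.26% lower), from 2.11-fold (CEP295) to 6.39-fold (CCDC88A). LPC with dantrolene raised 17 and lowered 0 (7.14% of all genes called, 6.23% higher and 0.9% lower), from 2.42-fold (CEP170) to 7.87-fold (CEP126). The fold changes of CEP162 and CEP126 rest on few counts in the vehicle libraries (19, 6 and 10, and 9, 22 and 18). At an unadjusted p under 0.05 the counts were 21, 20 and 21 genes, and DESeq2 called 18, 14 and 17. The median log2 fold change of the 47 genes was 0.67, 0.72 and 0.56 in that order, beside −0.18, −0.11 and −0.08 for all genes tested. Scaling by total counts alone moved the median of all genes to 0.00, 0.13 and 0.12 and that of the 47 to 0.85, 0.96 and 0.83.

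The calls in each comparison rested in part on single libraries. The shares of all genes called without a library, or under the other alternatives, are not given here. Whether the changes in count given next were particular to these genes or general therefore cannot be told here. This limit concerns those fits and not the main fit, whose shares are given above. The LPC count was 11 without LPC replicate 2. The dantrolene count was 7 without dantrolene replicate 2. The count with both agents was 9 without vehicle replicate 2 or 3, 10 without replicate 1 of that group, 8 without its replicate 3, and 10 when only the libraries of those 2 groups were fitted. The counts had been adjusted for batch before deposit, which can make p-values too small.

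**Figure D1:**
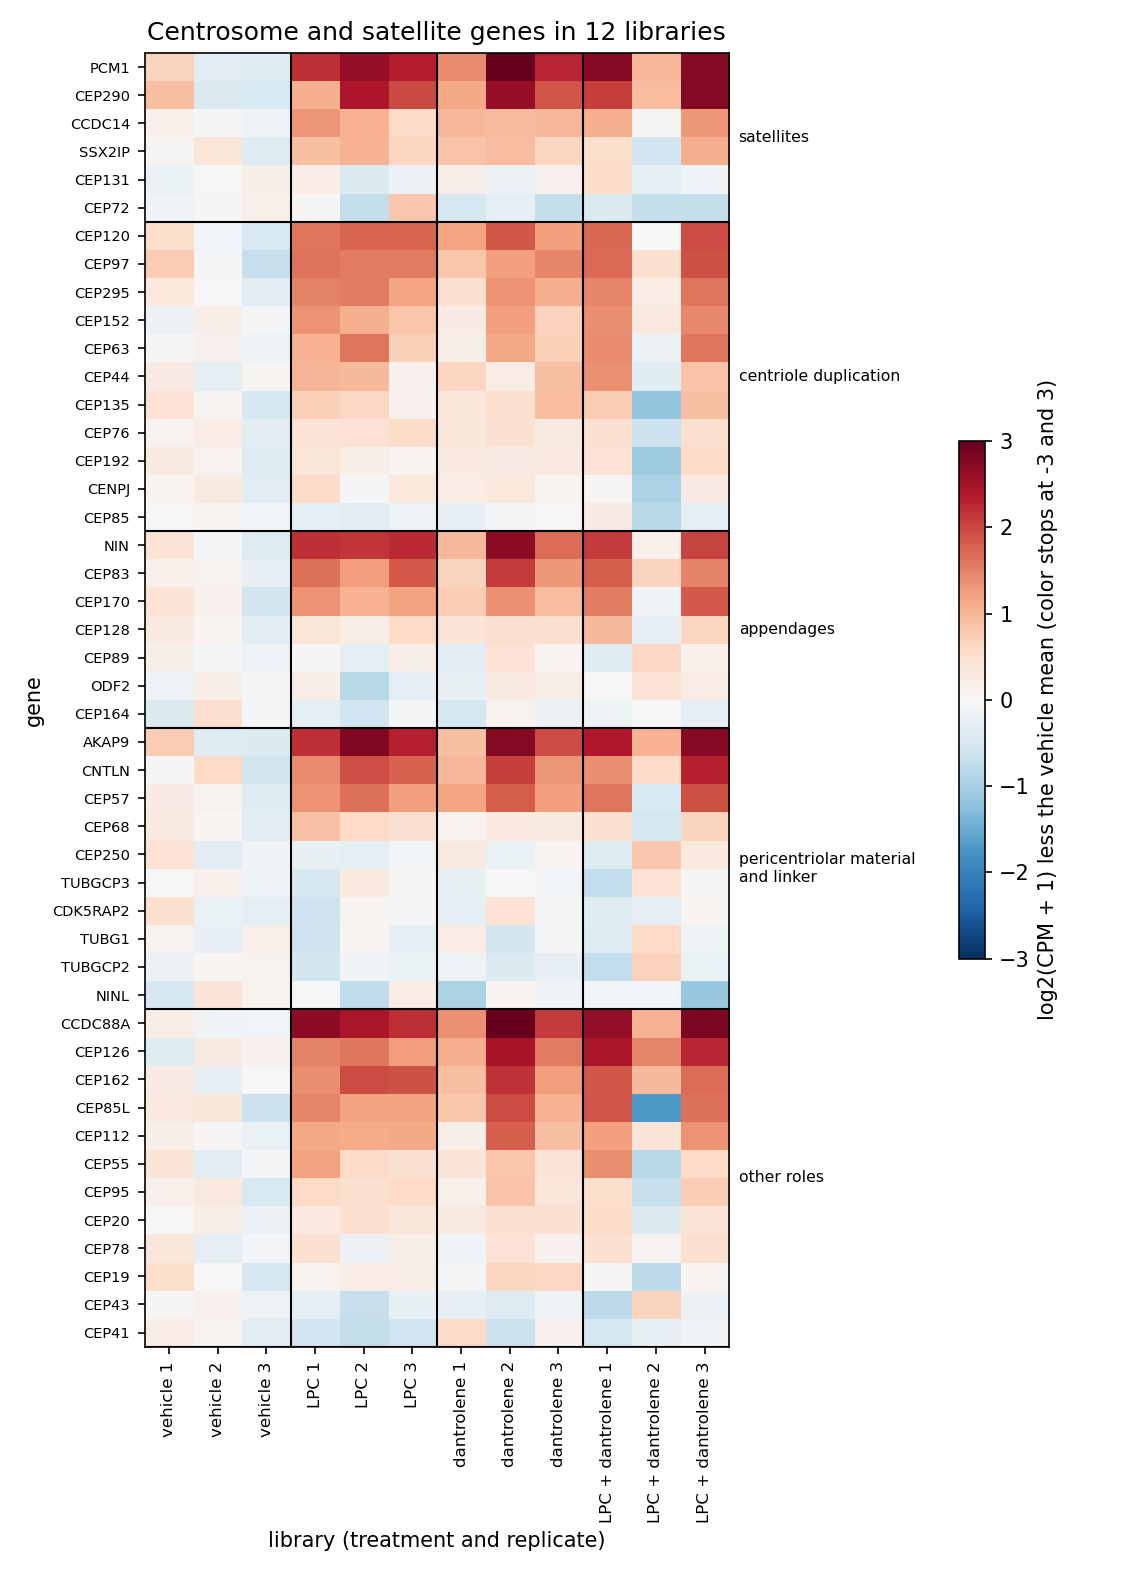
Level of 46 of the 47 genes in each library as log2(CPM + 1) less the mean of the 3 vehicle libraries, with genes in rows by role and libraries in columns. Red rows such as PCM1, NIN, AKAP9 and CCDC88A are above vehicle in the treated libraries, and replicate 2 of LPC + dantrolene is paler or blue in many of them.

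Called genes were found in every role and so were genes that were not called. A set of 14 genes was called higher in all 3 comparisons with vehicle: PCM1 and CEP290 of the satellites, CEP120, CEP97 and CEP295 of centriole duplication, NIN and CEP83 of the appendages, AKAP9, CNTLN and CEP57 of the pericentriolar material and linker, and CCDC88A, CEP126, CEP162 and CEP112. In all, 19 genes were called in at least 1 comparison and 28 in none. The shares of all genes tested in these classes were not computed. The comparisons share the vehicle libraries, and the paper reports that most raised genes were common to its treatment groups. With the isolation as a block CEP112, CEP57, CEP97 and CEP295 each lost at least 1 of their calls.

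Among the 6 satellite genes 3 rose with LPC, 2 with dantrolene and 2 with both agents. PCM1, the scaffold of the satellites, lies on chromosome 17 from 5596926 to 5705752 (Sscrofa11.1). Its level was 18.0, 8.53 and 8.31 CPM in vehicle replicates 1 to 3, 53.8, 72.2 and 59.5 with LPC, 30.7, 107 and 57.3 with dantrolene, and 79.0, 22.9 and 79.9 with both. No treated library overlapped the vehicle libraries, although replicate 1 of dantrolene and replicate 2 of the combination were the lowest of their groups. The log2 fold change of PCM1 was 2.41 ± 0.38 (SE) with LPC, 2.48 ± 0.39 with dantrolene and 2.38 ± 0.38 with both (edgeR adjusted p = 4.07e-06, 4.54e-06 and 1.01e-05).

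CEP290, which sits in satellites and in the gate at the base of the cilium, was at 3.00, 0.584 and 0.581 CPM in vehicle, 3.48, 10.6 and 7.46 with LPC, 3.78, 12.2 and 6.93 with dantrolene, and 8.10, 3.11 and 13.6 with both. The groups did not overlap, although vehicle replicate 1 was close to the lowest treated libraries. Its log2 fold change was 2.34 ± 0.49, 2.43 ± 0.49 and 2.54 ± 0.49 (edgeR adjusted p = 0.000259, 0.000205 and 0.00012), and the LPC call was lost without LPC replicate 2 (adjusted p = 0.0686, the highest of its 20 alternatives, the lowest being 8.3e-07). CCDC14 was called with LPC, at a log2 fold change of 1.26 ± 0.42, and had 1.22 ± 0.42 and 1.13 ± 0.42 in the other comparisons (edgeR adjusted p = 0.0414, 0.0514 and 0.0981). With the isolation as a block the LPC value of CCDC14 was 1.26 with an edgeR adjusted p of 0.0905.

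The other satellite genes were not called. CEP131, another satellite protein, was at 5.58, 6.66 and 7.61 CPM in vehicle and 7.79, 4.62 and 5.71 with LPC. It was at 7.61, 5.71 and 7.26 CPM with dantrolene and 10.2, 5.16 and 6.02 with both. The groups overlap, with log2 fold changes of −0.13 ± 0.38, 0.05 ± 0.38 and 0.11 ± 0.38. SSX2IP had 0.97 ± 0.40, 0.91 ± 0.40 and 0.56 ± 0.40. CEP72, which binds PCM1, held 10 to 14 counts in the vehicle libraries, 13, 0 and 36 with LPC, 3, 9 and 0 with dantrolene, and 4, 0 and 0 with both, and its fitted changes of 0.39 ± 1.07, −1.82 ± 1.17 and −3.04 ± 1.31 rest on few counts.

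Of the 11 genes of centriole duplication and length control, LPC raised 5, dantrolene 3 and both agents 5. CEP120, which helps centrioles grow to length, lies on chromosome 2 from 126840262 to 126930117. It was at 15.4, 9.81 and 7.26 CPM in vehicle, 33.3, 37.1 and 36.8 with LPC, 24.6, 40.0 and 25.7 with dantrolene, and 36.2, 10.3 and 43.0 with both. The LPC and dantrolene libraries lay above all vehicle libraries, while replicate 2 of the combination fell among them. The log2 fold change was 1.72 ± 0.37, 1.47 ± 0.36 and 1.46 ± 0.36 (edgeR adjusted p = 0.00037, 0.00303 and 0.00367). The dantrolene call of CEP120 was lost without vehicle replicate 2 and without dantrolene replicate 2, and the call with both agents without vehicle replicate 2 or 3 or without replicate 3 of that group, where the edgeR adjusted p reached 0.0839 and 0.109 over the alternatives, from 2.78e-05 and 1.19e-06.

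CEP97, which caps the distal end of centrioles together with CCP110, was at 5.53, 2.74 and 1.39 CPM in vehicle, 11.0, 10.2 and 10.4 with LPC, 5.91, 8.11 and 9.71 with dantrolene, and 11.6, 4.41 and 13.5 with both. The LPC libraries were close to each other and well above vehicle, the lowest dantrolene library was just above the highest vehicle library, and replicate 2 of the combination overlapped vehicle. Its log2 fold change was 1.70 ± 0.41, 1.28 ± 0.40 and 1.60 ± 0.41 (edgeR adjusted p = 0.00169, 0.0281 and 0.00427). With the isolation as a block the dantrolene value was 1.37 with an edgeR adjusted p of 0.0631, and over its 20 alternatives the adjusted p ran from 0.00287 to 0.296 and the call was lost in 8.

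CEP295, needed for new centrioles to become centrosomes, rose 2.82-fold, 2.11-fold and 2.47-fold. CEP152 and CEP63, partners that bring the kinase PLK4 to the centriole, rose 3.65-fold and 2.55-fold with LPC and 3.76-fold and 2.50-fold with both agents, and had 2.68-fold and 1.83-fold with dantrolene (edgeR adjusted p = 0.165 and 0.221). All 4 of those CEP152 and CEP63 calls were lost with the isolation as a block (edgeR adjusted p = 0.0867 and 0.0646 with LPC, 0.0996 and 0.0876 with both), as was the dantrolene call of CEP295 (0.0973). CEP192, which organizes both centrioles and pericentriolar material, was not called, with log2 fold changes of 0.19 ± 0.33, 0.25 ± 0.33 and 0.11 ± 0.33. CENPJ, a tubulin-binding elongation factor, had 0.30 ± 0.35, 0.21 ± 0.35 and −0.17 ± 0.35. CEP85, which binds the centriole assembly factor STIL, was at 12.9, 13.5 and 12.1 CPM in vehicle and at 10.6, 10.2 and 11.4 with LPC, so those libraries did not overlap. It was at 10.7, 12.2 and 12.6 CPM with dantrolene and 15.5, 6.77 and 10.3 with both, which overlap vehicle. With LPC its log2 fold change of −0.26 ± 0.35 was not called (edgeR adjusted p = 0.729). The other members of the group, CEP135, CEP44 and CEP76, lay between 0.20 and 1.04 on the log2 fold change scale in the 3 comparisons and were not called.

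**Figure D2:**
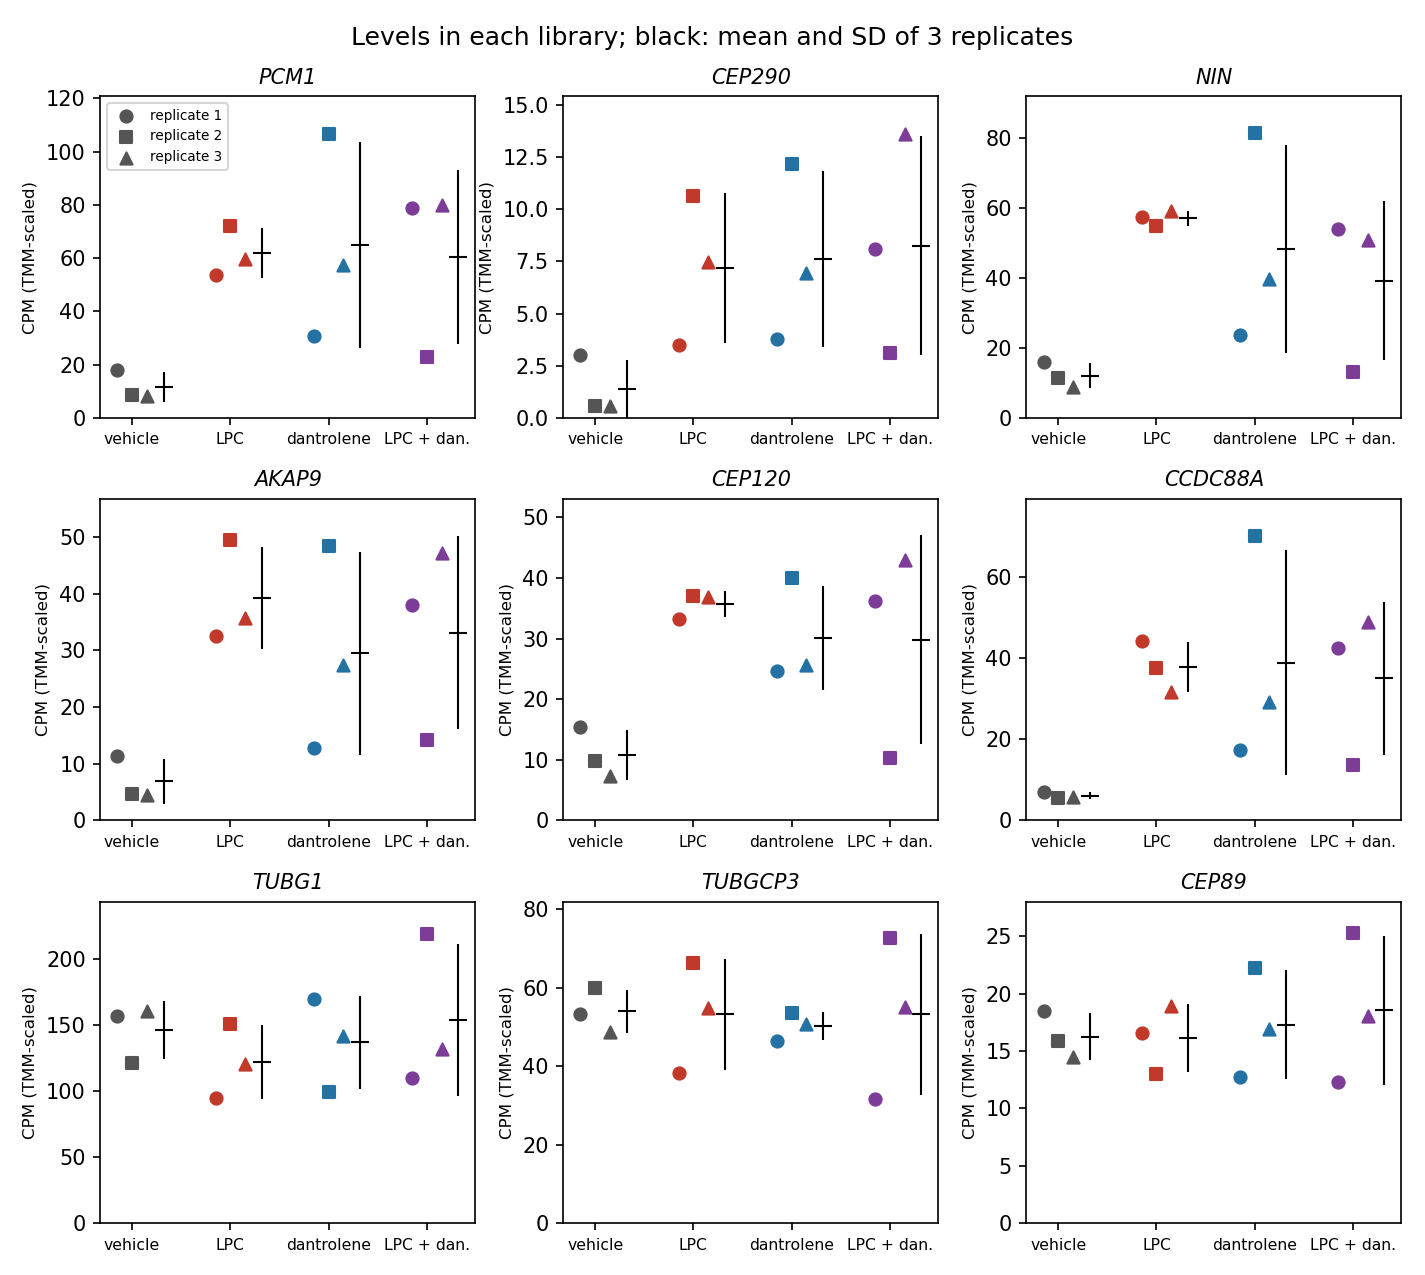
Level in CPM (vertical axis, linear from 0) of 9 genes in the 4 groups, 1 symbol per library and replicate, with the mean and SD of 3 replicates in black (the vehicle bar of CEP290 is cut at 0). The 6 upper genes rose in all 3 comparisons with vehicle and TUBG1, TUBGCP3 and CEP89 were not called, and dantrolene replicate 2 is the highest of its group in all 6 upper genes.

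Of the 7 appendage genes LPC raised 3, dantrolene 2 and both agents 3. NIN (ninein), which anchors microtubules at the subdistal appendages, lies on chromosome 1 from 180477269 to 180621980. It was at 15.9, 11.5 and 8.77 CPM in vehicle, 57.3, 54.9 and 59.1 with LPC, 23.8, 81.4 and 39.8 with dantrolene, and 53.9, 13.0 and 50.9 with both. The LPC libraries agreed closely (57.1 ± 2.14 CPM, mean ± SD, n = 3), whereas dantrolene spread over a wide range (48.4 ± 29.7 CPM) and replicate 2 of the combination overlapped vehicle. The log2 fold change of NIN was 2.24 ± 0.38, 2.00 ± 0.38 and 1.70 ± 0.38 (edgeR adjusted p = 1.04e-05, 8.63e-05 and 0.000847).

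CEP83, the protein at the root of the distal appendages, was at 8.01, 7.65 and 5.81 CPM in vehicle, 24.6, 18.4 and 27.8 with LPC, 11.8, 33.4 and 19.1 with dantrolene, and 27.4, 11.9 and 21.8 with both. Every treated library lay above every vehicle library. Its log2 fold change was 1.72 ± 0.36, 1.58 ± 0.36 and 1.51 ± 0.36 (edgeR adjusted p = 0.00031, 0.00115 and 0.00222). The dantrolene call was lost without dantrolene replicate 2 (adjusted p = 0.104, with the 20 alternatives from 2.64e-05 up to that value), and the call with both agents without replicate 1 of that group (0.0527, from 1.02e-05).

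CEP170, a subdistal appendage protein that binds microtubules, rose with LPC (2.25-fold, edgeR adjusted p = 0.0171) and with both agents (2.42-fold, 0.00968) and had 2.02-fold with dantrolene (0.0519). Both CEP170 calls were lost with the isolation as a block (edgeR adjusted p = 0.0559 and 0.0583). Other distal appendage genes were not called. CEP89 was at 18.5, 15.8 and 14.5 CPM in vehicle, 16.6, 13.0 and 18.9 with LPC, 12.7, 22.2 and 16.9 with dantrolene, and 12.3, 25.3 and 18.0 with both. These groups overlap throughout, and the log2 fold changes were −0.01 ± 0.34, 0.09 ± 0.34 and 0.19 ± 0.34. CEP164, which recruits the vesicle machinery of the cilium, had −0.34 ± 0.32, −0.24 ± 0.32 and −0.18 ± 0.32, and ODF2, a component of the appendages, had −0.26 ± 0.32, 0.08 ± 0.32 and 0.22 ± 0.32.

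In the pericentriolar material and the linker that joins the centrioles, 3 of 10 genes rose in each comparison, and they were AKAP9, CNTLN and CEP57 each time. AKAP9, a large scaffold of the centrosome and the Golgi that holds kinases and γ-tubulin complexes, lies on chromosome 9 from 71895615 to 72054898. It was at 11.4, 4.73 and 4.53 CPM in vehicle, 32.6, 49.6 and 35.6 with LPC, 12.7, 48.4 and 27.5 with dantrolene, and 37.9, 14.2 and 47.2 with both. The treated libraries did not overlap vehicle, with dantrolene replicate 1 the closest to it. The log2 fold change was 2.51 ± 0.40, 2.10 ± 0.39 and 2.26 ± 0.39 (edgeR adjusted p = 3.83e-06, 7.26e-05 and 3.04e-05).

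CNTLN (centlein), part of the linker, was at 1.57, 3.04 and 0.814 CPM in vehicle, 6.10, 9.12 and 8.02 with LPC, 4.33, 10.2 and 5.68 with dantrolene, and 5.94, 2.98 and 12.5 with both. Only replicate 2 of the combination fell within the vehicle range. The log2 fold change was 2.10 ± 0.45, 1.90 ± 0.45 and 1.98 ± 0.45 (edgeR adjusted p = 0.000413, 0.00175 and 0.00114). The dantrolene call was lost without dantrolene replicate 2 (adjusted p = 0.0889, from 9.25e-05 over the 20 alternatives) and the call with both agents without replicate 3 of that group (0.131, from 6.98e-06). CEP57, a pericentriolar protein that keeps centrioles engaged, rose 3.10-fold, 3.12-fold and 2.88-fold, and the last of these calls was lost with the isolation as a block (edgeR adjusted p = 0.0578).

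The genes of γ-tubulin and its partners among the 47, TUBG1, TUBGCP2, TUBGCP3 and CDK5RAP2, were not called in any comparison. TUBG1, γ-tubulin itself, was at 157, 121 and 161 CPM in vehicle, 94.4, 150 and 120 with LPC, 170, 99.5 and 142 with dantrolene, and 110, 219 and 132 with both. The groups overlap, and the log2 fold changes were −0.27 ± 0.32, −0.10 ± 0.32 and 0.07 ± 0.32, with approximate 95% intervals from −0.90 to 0.37, −0.73 to 0.54 and −0.56 to 0.70. TUBGCP3, a partner of γ-tubulin in its complex, was at 53.3, 59.9 and 48.8 CPM in vehicle, 38.3, 66.4 and 54.9 with LPC, 46.3, 53.5 and 50.8 with dantrolene, and 31.6, 72.7 and 55.2 with both. Its log2 fold changes of −0.02 ± 0.33, −0.10 ± 0.33 and −0.02 ± 0.33 were within the spread of the libraries. TUBGCP2, of the same complex, had −0.28 ± 0.32, −0.27 ± 0.32 and 0.03 ± 0.32, and CDK5RAP2, which tethers and activates the complex, had −0.21 ± 0.33, 0.03 ± 0.33 and −0.22 ± 0.33. CEP250 and CEP68, the linker partners of centlein, were not called, and neither was NINL, a relative of ninein.

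**Figure D3:**
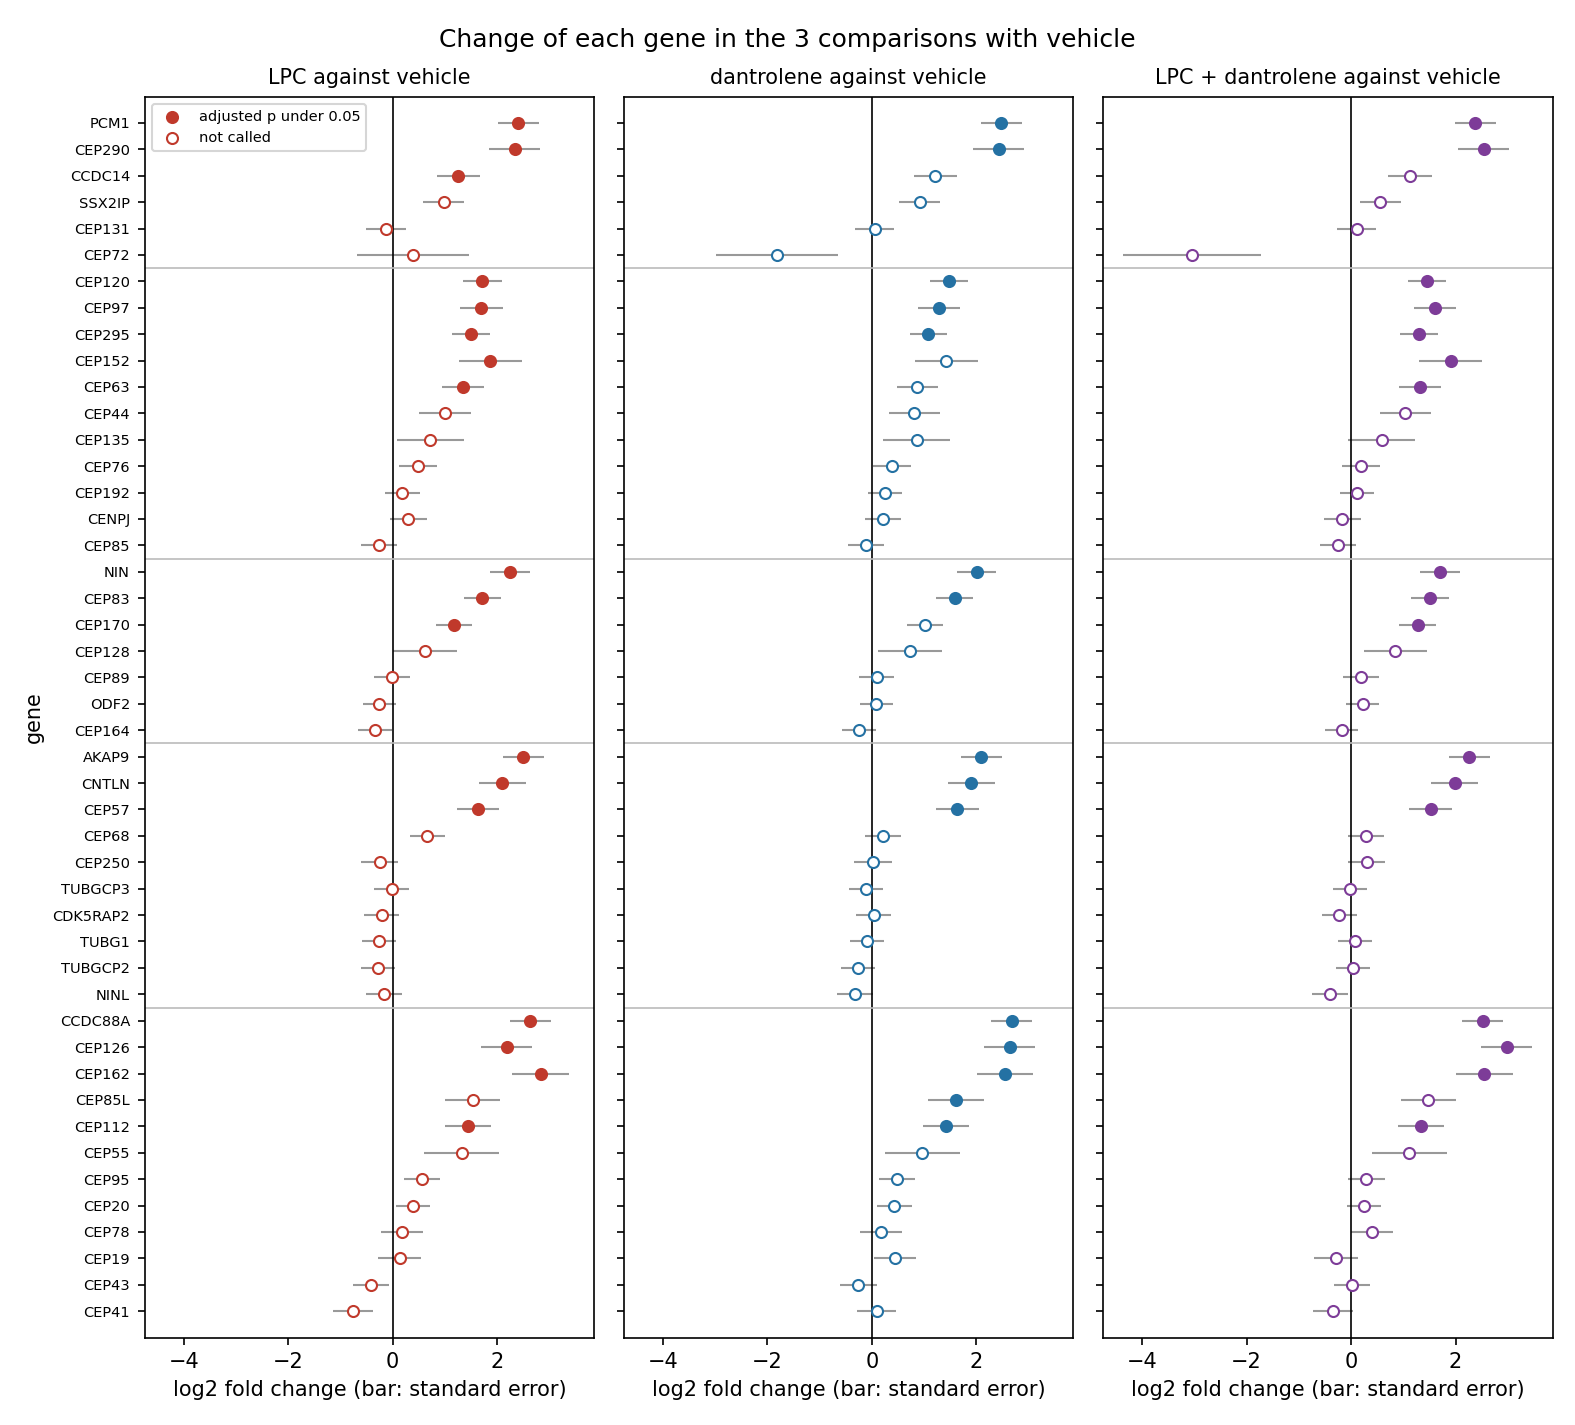
Log2 fold change against vehicle with its standard error for 46 of the 47 genes, in the same order as the map of levels, with a panel for each treatment and filled points for genes at an adjusted p under 0.05. Filled points lie only to the right of 0, in all 5 role groups, and TUBG1, TUBGCP2, TUBGCP3 and CDK5RAP2 stay near 0.

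Among the 13 remaining genes LPC raised 4, dantrolene 5 and both agents 4. CCDC88A (girdin), an actin-binding protein of the centrosome and of migrating cells, lies on chromosome 3 from 85811043 to 85971162. It was at 7.01, 5.49 and 5.69 CPM in vehicle, 44.1, 37.6 and 31.6 with LPC, 17.2, 70.0 and 29.1 with dantrolene, and 42.4, 13.6 and 48.8 with both. The vehicle libraries were tightly grouped and every treated library was well above them. The log2 fold change was 2.64 ± 0.39, 2.68 ± 0.39 and 2.52 ± 0.39 (edgeR adjusted p = 1.48e-06, 2.36e-06 and 6.26e-06), the smallest adjusted p among the 47 genes in each of the 3 comparisons.

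CEP126, a microtubule-binding protein at the base of the cilium, was at 0.429, 1.28 and 1.05 CPM in vehicle, 4.30, 4.67 and 3.50 with LPC, 3.01, 9.41 and 4.58 with dantrolene, and 9.21, 4.16 and 8.22 with both. The groups did not overlap, and the log2 fold change was 2.18 ± 0.48, 2.64 ± 0.48 and 2.98 ± 0.49 (edgeR adjusted p = 0.000604, 5.66e-05 and 1.3e-05). CEP162, which marks the distal centriole for the cilium's transition zone, was at 0.906, 0.350 and 0.581 CPM in vehicle, 3.23, 5.16 and 5.04 with LPC, 1.97, 6.13 and 2.78 with dantrolene, and 4.79, 2.11 and 4.06 with both. It too did not overlap vehicle, with log2 fold changes of 2.84 ± 0.55, 2.55 ± 0.54 and 2.55 ± 0.54 (edgeR adjusted p = 7.29e-05, 0.000477 and 0.000513).

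CEP112 rose 2.70-fold, 2.67-fold and 2.54-fold, and each of these calls was lost with the isolation as a block (edgeR adjusted p = 0.0675, 0.0972 and 0.118). CEP85L was called with dantrolene alone (3.05-fold, edgeR adjusted p = 0.0376) and had 2.89-fold with LPC (0.0535) and 2.79-fold with both (0.0771), and its dantrolene call was lost with the block (0.15). CEP41, which helps modify the tubulin of cilia, had the lowest log2 fold change with LPC, −0.76 ± 0.38, where all 3 LPC libraries (4.40 to 4.97 CPM) lay below vehicle (6.16 to 9.44 CPM), but it was not called (edgeR adjusted p = 0.317). CEP55, which works in the final cut of cell division, had log2 fold changes of 1.32 ± 0.72, 0.96 ± 0.72 and 1.12 ± 0.72 on few counts. CEP19, CEP20, CEP43, CEP78 and CEP95 had log2 fold changes between −0.41 and 0.56 and were not called.

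The libraries of a group were not alike in these genes. Replicate 2 of the combination was the lowest of its group in all 14 genes called in every comparison with vehicle, and in 16 of the 28 genes called in none. It held 0 counts of 4 genes (CEP85L, CEP55, CEP135 and CEP72). Dantrolene replicate 1 was the lowest of its group in all 14 and replicate 2 the highest in 13. Vehicle replicate 1 was the highest vehicle library in 12 of the 14. Without replicate 2 of the combination, that comparison called 22 of the 47 genes, adding CEP44, CEP55, CEP85L, CCDC14 and SSX2IP, and the median log2 fold change of the 47 genes was 0.98. The share of all genes called in that fit is not given here, so the rise cannot be read as particular to these genes. Of the 47 genes, 25 had all LPC libraries above all vehicle libraries, 23 all dantrolene libraries and 9 all combination libraries, where 16.6%, 16.1% and 4.71% of all genes tested did so. In the opposite direction the counts were 3, 1 and 1 (10.6%, 11% and 5.74% of all genes tested).

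None of the 47 genes was called between treated groups. LPC with dantrolene was compared with LPC, and with dantrolene, and dantrolene with LPC, and edgeR called 0 genes in each, with 1, 0 and 1 genes at an unadjusted p under 0.05 and 0 calls by DESeq2. Of all genes tested 0.507%, 0.0227% and 0.325% were called. PCM1 had a log2 difference of −0.03 between the combination and LPC, with an approximate 95% interval from −0.74 to 0.68. NIN had −0.54, from −1.25 to 0.18, and all 3 combination libraries of NIN lay below all 3 LPC libraries (2 of the 47 genes did so, where 4.93% of all genes did). Over the 14 genes called in every comparison with vehicle, the intervals reached down to −1.25 and up to 1.65 for the combination less LPC. They reached −1.01 and 1.19 for the combination less dantrolene, and −1.24 and 1.31 for dantrolene less LPC. These are the outermost limits over the 14 genes and not a limit of detection. The 14 were picked as raised in every treated group, which limits differences between those groups in advance.

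For 9 of the 47 genes the change with LPC was smaller when dantrolene was present. The interaction, which is the log2 change with LPC in the presence of dantrolene less that in its absence, was called negative for those 9 and positive for 0, where 4.65% of all genes tested were called in either direction, 4.49% negative and 0.159% positive. CCDC88A changed by 2.64 with LPC alone and by −0.15 with LPC on top of dantrolene, an interaction of −2.79 ± 0.53 (edgeR adjusted p = 0.000723). For NIN these values were 2.24 and −0.30, with an interaction of −2.54 ± 0.52 (0.00133). For PCM1 they were 2.41 and −0.10, with −2.51 ± 0.52 (0.00152), for AKAP9 2.51 and 0.16, with −2.34 ± 0.54 (0.0034), and for CEP162 2.84 and 0.00, with −2.84 ± 0.72 (0.00903). The other called genes were CEP83, CEP120, CEP290 and CNTLN. The interaction draws on the same vehicle libraries as the comparisons with vehicle. A gene raised by like amounts in all of those comparisons has a negative interaction by construction. The count depended on single libraries and on the model: it was 0 without LPC replicate 2 or without dantrolene replicate 2, 4 without vehicle replicate 2, 5 without vehicle replicate 3 or LPC replicate 1, 4 with the isolation as a block (CCDC88A, NIN, PCM1 and AKAP9, at edgeR adjusted p = 0.0265, 0.0289, 0.0302 and 0.0447), 4 by DESeq2 and 5 with total counts alone. Shares of all genes called in those fits are not given here, so these shifts cannot be read as particular to these genes.

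The genes called higher had longer genomic spans than those not called. Spans were taken from RefSeq's gene table of Sscrofa11.1, which matched 44 of the 47 genes (all but CEP20, CEP43 and TUBG1) and 10811 of the genes tested. The median span was 70.4 kb for the matched genes, 109 kb for the 19 called in at least 1 comparison and 46.4 kb for the 25 matched genes called in none, beside 30.5 kb for all matched genes tested. Of all genes the share called higher with LPC rose from 2% in the shortest quartile of spans through 5.29% and 13.9% to 16.5% in the longest, and the shares with dantrolene (1.96% to 14.7%) and with both (1.74% to 11.9%) rose in the same order. In the longest quartile 14, 12 and 14 of 21 of these genes were called, and in the next 4, 3 and 3 of 17. CEP128 (414 kb, 412 counts in all), CDK5RAP2 (182 kb) and CEP192 (122 kb) had long spans and were called in no comparison. The part of the span in these results was not tested.

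**Figure D4:**
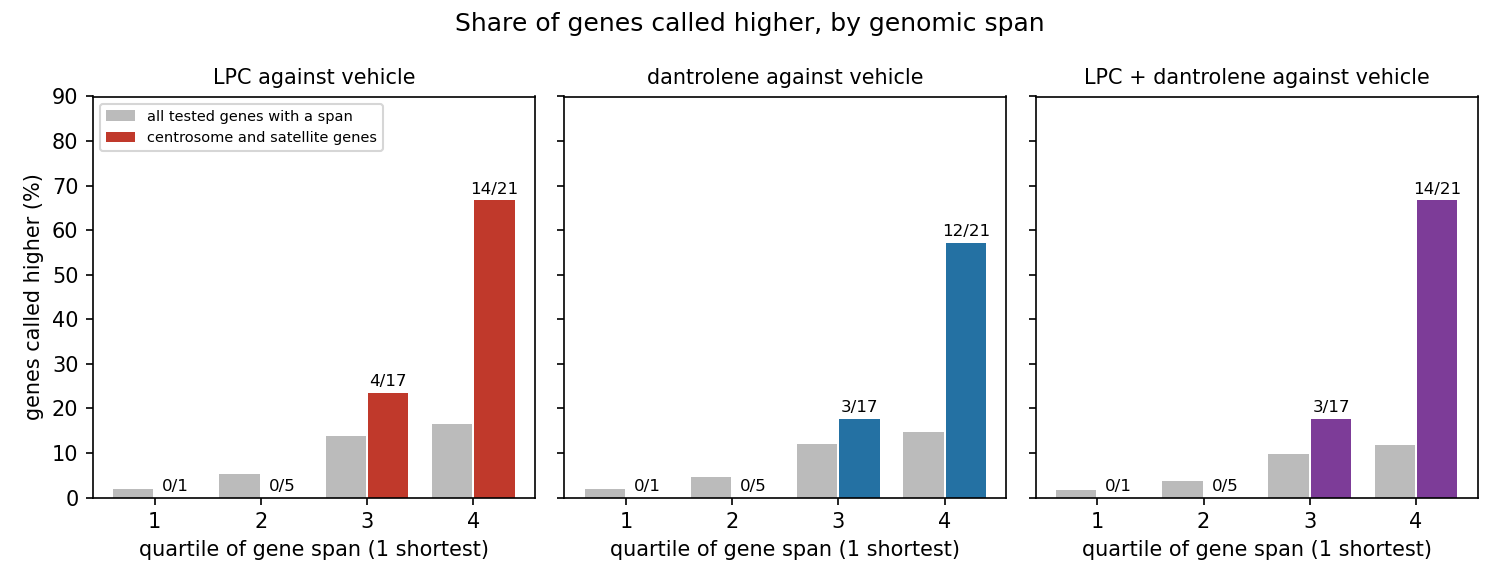
Share of genes called higher against vehicle (percent, bars from 0) in each quartile of RefSeq gene span, from 1, the shortest, to 4, the longest, for all tested genes with a span (gray) and for the centrosome and satellite genes (color, with called over matched genes above each bar). In the longest quartile 14, 12 and 14 of 21 of the centrosome and satellite genes were called, and the gray bars rise from 2% to 16.5% with LPC.

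The same calls were read for 65 other names of centriole, centrosome and cilium base genes that the rule does not take. Of these, 58 were tested. They come from the same libraries, and the list was chosen with earlier results of these data known, so they are no independent check. LPC raised 12 (20.7%), dantrolene 13 (22.4%) and both agents 12 (20.7%), where 8.54%, 7.54% and 6.23% of all genes tested were called higher, and 0 were lowered. The smallest p-values were those of LRRCC1, a centriole lumen protein, at log2 fold changes of 2.65, 2.82 and 2.84, PLK4, the kinase that starts centriole duplication, at 2.31, 2.63 and 2.65, and CCP110, the partner of CEP97, at 2.43, 2.33 and 2.39. In the other direction HAUS7, of the augmin complex, NEK2, a kinase that cuts the linker, and TACC2 had the smallest p and were not called. Of that list 0 of 6 appendage and linker genes were called in each comparison, with median log2 fold changes of −0.14, −0.25 and −0.02. Called higher were 3 of 15 duplication genes in each comparison and 5, 7 and 7 of 21 satellite and cilium genes. Of the 16 tested genes grouped under microtubule nucleation, 4, 3 and 2 were called higher, and they are named here after their values were seen. HAUS6 rose 4.72-fold, 3.26-fold and 3.81-fold and HAUS3 3.62-fold, 3.34-fold and 3.79-fold, both of the augmin complex, which branches microtubules. NEDD1, which brings γ-tubulin complexes to the centrosome, rose 2.95-fold and 2.15-fold with LPC and dantrolene and had 2.03-fold with both (edgeR adjusted p = 0.00112, 0.0349 and 0.0692). CKAP5, a microtubule polymerase, rose 2.07-fold with LPC (edgeR adjusted p = 0.0398). SPICE1 had log2 fold changes of 0.33, 0.48 and 0.30 and BBS4 0.16, 0.09 and −0.10, not called.

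Cells copy their centrosomes as they divide, so 24 names of proliferation genes were set beside them, of which 20 were tested. LPC raised 4 (20%, beside 8.54% of all genes tested) and lowered 0, and among the 4 were TOP2A (log2 fold change 2.85 ± 0.60), CENPF (2.63 ± 0.58) and CENPE (2.30 ± 0.47), proteins of chromosome untangling and of the kinetochore. With LPC 10 of the 20 lay above 0 and 10 below, at a median log2 fold change of −0.03. The medians with dantrolene and with both were −0.65 and −0.71. Dantrolene raised 1 and lowered 5, and so did both agents, where 7.54% and 6.23% of all genes tested were called higher and 1.26% and 0.9% lower. The 1 raised gene is 5% of the 20 tested. CENPE rose with dantrolene and with both (1.96 and 1.76), whereas MCM2, of the replication helicase, fell by 1.39 and 1.42 on the log2 scale, and CDC20, which drives exit from mitosis, fell by 1.52 and 1.21. PLK1, a mitotic kinase, fell by 1.54 with dantrolene and had −1.01 with both, which was not called. The summed level of the list was 174 to 240 CPM in vehicle, 186 to 276 with LPC, 121 to 191 with dantrolene and 119 to 197 with both.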

How the data were processed

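RNA of paVICs was sequenced in 12 libraries (4 groups of 3 isolations, total counts 16489684 to 24105935). Groups and replicate numbers came from the labels, and the isolations from the study's methods. The authors' text names STAR for alignment, whereas the submitters' processing notes name HISAT2 2.0.5, the Sscrofa11.1 build, R 4.1.1 and DESeq2 1.32.0. The authors deposited whole-number counts per gene after a batch adjustment with ComBat. Their text does not name the batch, and each isolation had its own day. These counts are not the reads as sequenced, and p-values can be too small because the tests do not count that adjustment. Deposited tables of the authors' own comparisons (fold changes and p-values) were not used.

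The whole table of 31908 genes was fitted in edgeR 4.0.16 (R 4.3.3). TMM scaling and 1 quasi-likelihood model with a term for the group were applied to the 13216 genes that passed filterByExpr. The threshold was 0.05 on the p-value adjusted by Benjamini-Hochberg. SE is the absolute log2 fold change over the square root of F, and intervals are the log2 fold change ± 1.96 SE (95%). The code was tested on simulated data. Floors of 3 counts cover counting error only. Same-numbered libraries were taken to share an isolation, from the replicate numbers of the labels and the study's methods. Their deviations from group means had a median correlation of −0.152 (−0.536 to 0.207), an outcome that the adjustment itself sets. Alternatives were RLE size factors, total counts alone, other filters, DESeq2 1.42.0, the isolation as a block, only the groups compared, a threshold of 0.1, and fits that left out 1 library at a time. Values in every library are given, in each role, for the 2 genes of smallest p over the comparisons with vehicle and the gene of largest minimum p, for TUBG1, PCM1 and the 5 genes of smallest interaction p, and of each other list the 3 genes of smallest p in each direction are named. CEP41 and CEP72 libraries and the use of gene spans were chosen after their values were seen. The members, roles and lists were chosen with earlier results of these data known. Gene identities come from the deposited symbols, and counting by strand is not given in the sources used here. Sequences were not used here, and the values of 1 gene, which stays in every count, are not reported here.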

Additional observations from a re-analysis of the deposited data

Results flagged for a closer look

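In 9 of the 47 centrosome and satellite genes the change with LPC differed between cells with and without dantrolene by a test of the interaction in edgeR (Benjamini-Hochberg adjusted p under 0.05 over all genes tested). The log2 change with LPC in the presence of dantrolene less that without it was −2.84 for CEP162, −2.79 for CCDC88A, −2.54 for NIN, −2.51 for PCM1, −2.34 for AKAP9, −2.22 for CEP290, −2.02 for CNTLN, −1.79 for CEP83 and −1.73 for CEP120. All 9 were among the genes raised in each of the 3 comparisons with vehicle. A gene raised by like amounts in all 3 has a negative interaction by construction, so this overlap is no separate result. None of the 9 kept its call in all 19 alternatives.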

How the results depend on the processing

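Numbers of genes called were recomputed under total counts alone, RLE factors, no filter or a mean of at least 1 CPM, DESeq2, the isolation as a block, the compared groups alone, a threshold of 0.1, and without each library in turn. Calls held in all 20 alternatives for 11 of 18 genes with LPC, 7 of 15 with dantrolene and 7 of 17 with both, and for 0 of 9 in the interaction, which has 19. The isolation as a replicate block gave 13, 11, 12 and 4 calls, in that order, and the calls it changed among the genes described stand beside them. The interaction count was also 5 with total counts alone and 4 with DESeq2, and the count for both agents was 10 with only those groups fitted. Without single libraries the counts ran from 11 to 20 (LPC), 7 to 20 (dantrolene), 8 to 22 (both) and 0 to 12 (interaction), and were 0 in all comparisons between treated groups. The medians ran from 0.56 to 0.90, 0.51 to 0.90, 0.31 to 0.98 and −1.10 to −0.49. The causes of these changes were not tested, and the shares of all genes called in these fits are not given here. Of 6517 values of the 47 genes with an adjusted p under the alternatives, over 7 comparisons, 6290 kept their side of the threshold and sign where called, 173 lost a call, 54 gained one and 0 reversed. Most often gained were CEP170 with dantrolene (9 of 20), CEP85L with LPC (8 of 20), CEP57 in the interaction (8 of 19) and CCDC14 with dantrolene (7 of 20). Low counts limit CEP72, CEP55 and CEP135. Few counts in vehicle libraries also limit the called genes CEP152, CEP162, CEP126 and CEP290.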
